A study of Mus musculus with 40 samples.

Results

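The assays Mm04207460_m1 and Mm00446190_m1 are 2 of the 224 real-time PCR assays run on mouse colonic mucosa in this series. They were chosen by assay ID, as the assays the vendor lists for Cxcl1 and for Il6. The deposited table holds assay IDs without gene names, so the names Cxcl1 and Il6 rest on the vendor's listing, and the labelled tissue could not be checked against marker genes. The 40 samples fall into 4 groups of 10. Germ-free mice carried no microbes and served as the control. Mice of the CEC group and mice of the Nissle group had each been colonised for 21 days with a single Escherichia coli strain, E. coli CEC or E. coli Nissle. Conventional mice carried a full microbiota, with no colonisation time given. Strain, sex and age of the mice are not given in the labels. The design text speaks of RNA pooled over mice while 40 separate samples are given, and whether a sample is 1 mouse is unsettled. The p-values therefore describe sample-to-sample spread, part of which may be technical.

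CXCL1, also called KC, is a chemokine that draws neutrophils through the receptor CXCR2, and epithelial cells, stromal cells and macrophages make it on contact with bacterial products. Interleukin 6 is a cytokine that signals through its receptor and the shared subunit gp130 to STAT3, drives the acute phase response and acts on T cells and on epithelial regeneration. Both genes are textbook targets of the transcription factor NF-kappaB, which Toll-like receptors activate. In the colon of a healthy animal the transcripts of both are scarce. E. coli Nissle is a strain used as a probiotic.

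The promoters of both genes were read from RefSeq (GRCm38.p6), which held an entry for each of the 2 genes, and are shown because the samples allow these known NF-kappaB targets to be compared in the same tissue. The stretches below are the 250 bases before the annotated start of each gene, both on the + strand, Cxcl1 at chr5:90890995-90891244 and Il6 at chr5:30012864-30013113. Capitals mark the matches to the NF-kappaB consensus.
Cxcl1: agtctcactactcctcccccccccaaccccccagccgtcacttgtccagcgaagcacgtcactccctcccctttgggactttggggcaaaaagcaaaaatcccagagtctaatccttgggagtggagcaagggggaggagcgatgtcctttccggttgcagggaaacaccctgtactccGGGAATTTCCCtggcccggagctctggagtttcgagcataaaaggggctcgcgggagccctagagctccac
Il6: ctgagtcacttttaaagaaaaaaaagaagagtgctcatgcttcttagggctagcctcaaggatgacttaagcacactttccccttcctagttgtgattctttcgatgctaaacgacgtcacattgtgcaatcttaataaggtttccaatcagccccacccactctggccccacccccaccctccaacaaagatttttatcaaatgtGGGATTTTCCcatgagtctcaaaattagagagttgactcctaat

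Each promoter held the NF-kappaB consensus close to the gene. Counting the base just before the start as -1, it matched in Cxcl1 in both orientations, 1 base apart, from -71 to -61. In Il6 the match lay from -44 to -35. Of 32851 RefSeq promoter stretches of this length, 3.9% held the consensus on either strand. The letters TTGCNNAA, a site shape of C/EBP factors, were found once in Il6, on the - strand from -128 to -121, and not in Cxcl1, against 9.56% of all promoters. TATAAA was in neither window, against 12.4% of all promoters. These matches describe the sequence, and no binding was measured in this series.

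Cxcl1 stood highest in the colons colonised with E. coli Nissle. Its level there was very uneven, with 4 of 10 Nissle samples above every measured sample of the other 3 groups. The difference between the E. coli strains passed the test, by a narrow margin that was lost on leaving out most single samples. Part of that loss came from the adjustment over other assays. The differences of Nissle from germ-free and from conventional samples did not pass. Il6 was undetermined in 4 to 7 of the 10 samples of every group. It gave a Ct in 18 of 40 samples, and detection did not differ between groups past the test. A single Nissle sample held far more Il6 than any other sample.

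The threshold cycle (Ct) is the PCR cycle at which a well's fluorescence crosses a threshold, so a lower Ct means more template, about a doubling for each cycle. Levels are given on a log2 scale as relative expression: the median Ct of a sample, taken over 203 assays that had no undetermined well, less the Ct of the assay in question. The sample medians ran from 21.57 to 24.27 cycles, with means of 21.96 ± 0.288 cycles in the conventional group (SD, n = 10), 22.30 ± 0.488 in the Nissle group, 22.47 ± 0.309 in the germ-free group and 22.72 ± 0.838 in the CEC group. A Ct of 40 was read as undetermined. A further kind of value had been filled in before deposit with the mean of the other samples of its group, and was left out here.

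No Cxcl1 well was undetermined, but 6 of the 40 Cxcl1 values were filled in: 3 in germ-free, 2 in CEC and 1 in conventional samples. What these wells read before they were filled in is not known. The filled-in CEC wells belong to replicates 6 and 8, whose sample medians of 23.79 and 24.27 cycles were the highest of all samples. All 10 Nissle values were measured. Counting filled-in wells as not measured, Fisher's exact test gave a p of 0.211 for Nissle against germ-free (100% against 70%, adjusted p = 1), and 0.474 to 1 for the other comparisons of Cxcl1.

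In the 7 germ-free samples measured, Cxcl1 had a lowest relative expression of -7.51, a median of -4.32 and a highest of -4.05 log2 units, with Ct values between 25.83 and 29.87. Their mean was -5.19 ± 1.37 (SD, n = 7). They lay in a cluster of 4 samples between -4.32 and -4.05 and 3 samples spread below it, at -5.74, -6.35 and -7.51. The samples are whole mucosa, so a higher share of cells that make a transcript and more transcript per cell cannot be told apart in any of these values.

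In the 8 CEC samples measured, the lowest was -7.77, the median -5.28 and the highest -3.65, with a mean of -5.50 ± 1.38 (SD, n = 8). Replicates 1, 7, 2 and 4 formed the upper part, at -3.65, -4.50, -4.54 and -4.81, and replicates 5, 3, 9 and 10 the lower, at -5.75, -6.16, -6.83 and -7.77. Only replicate 1 lay above the highest germ-free sample. In the 9 conventional samples measured, the lowest was -6.10, the median -4.59 and the highest -2.46, with a mean of -4.63 ± 1.11 (SD, n = 9). Replicate 6 was the highest conventional sample, with a Ct of 24.50, and replicates 1 and 2 were the lowest, at -6.10 and -6.07, with the other 6 between -5.03 and -3.97. These ranges overlapped with each other and with germ-free samples over most of their length.

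In the 10 Nissle samples, Cxcl1 ran from -7.36 to 0.95, with a median of -2.73 and a mean of -2.43 ± 2.87 (SD, n = 10). Replicates 9, 5, 7 and 8 formed the upper end, at 0.95, 0.80, 0.74 and -0.39, with Ct values of 21.82, 21.40, 20.83 and 23.18. Replicates 1 and 6 followed at -2.54 and -2.91. Replicates 10, 4, 2 and 3 lay at -4.21, -4.27, -5.11 and -7.36, within the range of germ-free samples. The sample medians of replicates 9, 5, 7 and 8 were 22.77, 22.20, 21.57 and 22.79 cycles, at both ends of the Nissle range of 21.57 to 22.79, so the high Cxcl1 readings came with high and with low overall Ct. The distance from the lowest to the highest Nissle sample was 8.31 log2 units, while the same distance was 4.12 in CEC, 3.64 in conventional and 3.46 in germ-free samples. Within the Nissle group the SD of Cxcl1 was the 3rd highest of 216 assays, whose median SD was 0.608. In germ-free samples it was the 13th highest of 215.

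**Figure D1:**
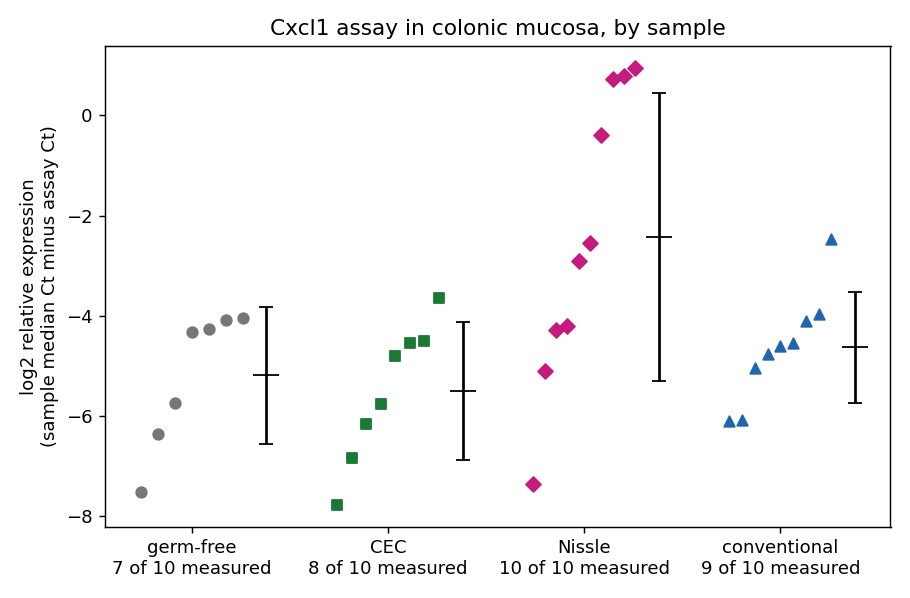
Relative expression of the Cxcl1 assay (log2 units, vertical axis) in each measured sample of the 4 groups, with the group mean and SD to the right of the points; filled-in values are not drawn. Of the Nissle samples, 4 lie above every other group's highest sample, which is a conventional sample at -2.46, and 4 lie at -4.21 or lower.

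Ordered by mean, Cxcl1 was highest in Nissle, then in conventional, germ-free and CEC samples. By median, germ-free samples, at -4.32, came before conventional samples, at -4.59. The 3 groups below Nissle did not differ from each other past the test (limma, 1 fit over all assays and groups, Benjamini-Hochberg adjusted within a comparison). The difference of CEC minus germ-free was -0.31 with a standard error of 0.947 (95% interval -2.24 to 1.61, adjusted p = 0.836), where 8.45% of 213 assays were called in either direction. That of conventional minus germ-free was 0.56 with a standard error of 0.922 (-1.31 to 2.44, adjusted p = 0.709; 17.8% of 214 assays called). That of CEC minus conventional was -0.88 with a standard error of 0.889 (-2.68 to 0.93, adjusted p = 0.521; 25.7% of 214 called). These intervals are wide, and leave room for a change of more than 4-fold in 1 direction in each comparison.

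Colonisation with Nissle was set against germ-free mucosa to ask what this strain alone changes. Cxcl1 was 6.75-fold higher in Nissle samples, a log2 difference of 2.76 with a standard error of 0.902 (95% interval 0.92 to 4.59). It missed the threshold of 0.05 (limma, adjusted p = 0.0561), in a comparison where 6.51% of 215 assays were called. Of the Nissle samples 9 of 10 lay above the germ-free mean and 6 lay above the highest germ-free sample. The germ-free mean, -5.19, was itself below the germ-free median, -4.32. Between the medians of the groups the difference was smaller, 1.59 log2 units. The call turned with single samples and with the handling of high Ct values. Cxcl1 passed when Ct above 30 was read as undetermined, which removes Nissle replicate 3 alone from this assay (9.87-fold, limma, adjusted p = 0.00602). It passed with filled-in values as deposited (6.44-fold, 0.0231) and without Nissle replicate 2, 3 or 4 (adjusted p from 0.00794 to 0.0355) or CEC replicate 6 or 8 (0.0393 and 0.0482). Filled-in values repeat the mean of their group, so this setting lowers the standard error by construction, here to 0.768. CEC replicates 6 and 8 had no measured Cxcl1 value. Without them the unadjusted limma p was 0.00439 and 0.00449, against 0.00444 with all samples, so only the adjustment over other assays moved. With filled-in and undetermined wells both set to 37.67 cycles, a setting added after the values had been seen, Cxcl1 was 52.5-fold higher (limma, adjusted p = 0.0325). That fold depends on the chosen value and is no measured level. It places 3 germ-free wells of unknown reading far past the highest measured Cxcl1 Ct, 30.03, and changes no Nissle well. Over all alternatives of this comparison the adjusted p ran from 0.00602 to 0.262, the latter from a permutation test of ranks in which 9.05% of 221 assays were called.

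The direct comparison of the E. coli strains asks whether they leave the mucosa in different states. Cxcl1 was 8.40-fold lower in CEC than in Nissle samples, a difference of CEC minus Nissle of -3.07 log2 units with a standard error of 0.867 (95% interval -4.84 to -1.31; limma, adjusted p = 0.0439). In this comparison 3.27% of 214 assays were called, 2.34% as lower in CEC. All 8 measured CEC samples lay below the Nissle mean, and 6 of 10 Nissle samples lay above the highest CEC sample. The ranges still overlapped, since Nissle replicates 10, 4, 2 and 3 lay among the CEC samples. Between medians the difference was -2.56. On raw Ct with no normaliser the difference was -3.17, near the normalised value (limma, adjusted p = 0.045).

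This call held only narrowly. A fit of these groups alone ended it (limma, adjusted p = 0.2). The fit of all groups takes 1 estimate of the spread from the 4 groups, in which the SD of Cxcl1 was 2.87 for Nissle and between 1.11 and 1.38 for the others. A permutation test of ranks gave an unadjusted p of 0.0155 and an adjusted p of 0.2, with 0 of 220 assays called and 31 at an unadjusted p under 0.05. With filled-in values ranked lowest, which was tried after the values had been seen, the permutation p was 0.00392 and the adjusted p 0.108. With filled-in and undetermined wells both at 37.67 cycles the log2 difference of CEC minus Nissle was -4.70 and the limma adjusted p 0.161. Leaving out 1 sample ended the call for 28 of 40 samples: each of the 10 CEC samples, Nissle replicates 1, 4, 5, 6, 7, 8, 9 and 10, germ-free replicates 11, 21, 22 and 31, and conventional replicates 1, 3, 4, 5, 7 and 8. The limma adjusted p then ranged from 0.0503 to 0.101, while the difference stayed between -3.33 and -2.69. CEC replicates 6 and 8, germ-free replicate 22 and conventional replicate 5 had no measured Cxcl1 value. Leaving out any of them kept the difference at -3.07 and the unadjusted limma p at 0.0012, so the adjustment over the other assays ended the call. Without CEC replicate 1 the unadjusted limma p fell from 0.00122 to 0.000787, yet the adjusted p rose to 0.0518. Without Nissle replicate 3 the difference was -3.62 (adjusted p = 0.0128).

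Against conventional mucosa, Cxcl1 was 4.58-fold higher in Nissle samples, a log2 difference of 2.19 with a standard error of 0.84 (95% interval 0.48 to 3.90). The adjusted p of 0.0503 (limma) lay just past the threshold, where 26% of 215 assays were called. Of the Nissle samples 8 of 10 lay above the conventional mean, 4 lay above the highest conventional sample and 1 lay below the lowest. Between medians the difference was 1.87. The comparison passed with the normaliser restricted to 153 assays measured in every sample (limma, adjusted p = 0.0368), with filled-in values as deposited (0.0347) and without any 1 of 11 samples: Nissle replicates 2, 3, 4 and 10, conventional replicates 5 and 6, CEC replicates 6, 8 and 10, and germ-free replicates 30 and 33 (0.00975 to 0.0493). Its adjusted p over all alternatives ran from 0.00732 to 0.202, the latter again from the permutation test of ranks, where 26.1% of 222 assays were called. CEC replicates 6 and 8, germ-free replicate 30 and conventional replicate 5 had no measured Cxcl1 value. Without any of them the difference stayed at 2.19 and the unadjusted limma p between 0.0134 and 0.0136, so only the adjustment over other assays moved. Filled-in values as deposited lower the standard error by construction, here to 0.767.

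**Figure D2:**
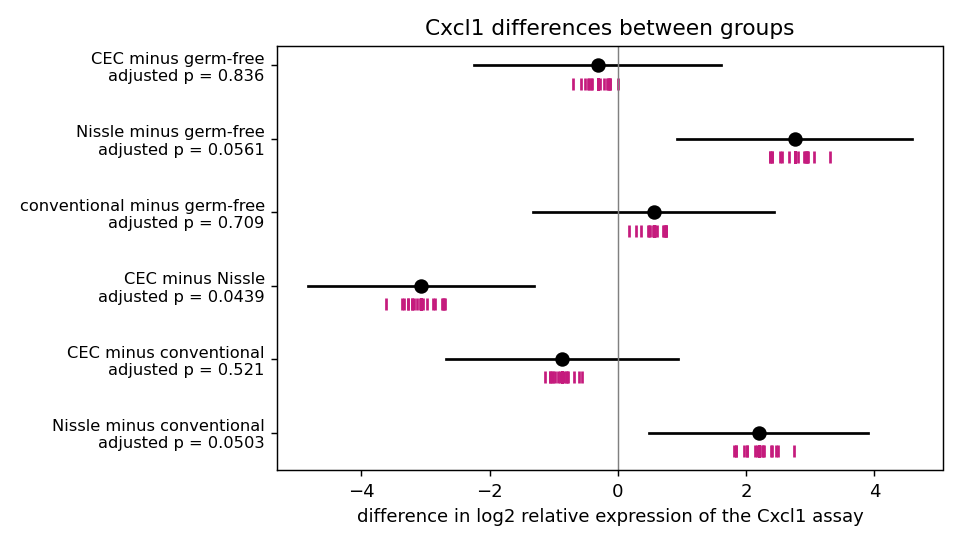
Differences in log2 relative expression of the Cxcl1 assay (horizontal axis) for the 6 comparisons, as black points with 95% intervals from limma; pink ticks show the difference with each of the 40 samples left out in turn. The interval of CEC minus Nissle runs from -4.84 to -1.31, and with any 1 sample left out the difference stays between -3.62 and -2.69.

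Il6 gave a measured Ct in 6 of 10 germ-free, 3 of 10 CEC, 5 of 10 Nissle and 4 of 10 conventional samples, and the other 22 wells were undetermined. No Il6 value had been filled in. With 10 samples a group, these shares are imprecise: the exact (Clopper-Pearson) 95% interval was 26.2% to 87.8% in germ-free, 6.67% to 65.2% in CEC, 18.7% to 81.3% in Nissle and 12.2% to 73.8% in conventional samples. The largest gap was between germ-free (60%) and CEC (30%), with a p of 0.37 in Fisher's exact test (adjusted p = 1). The p-values of the other comparisons were between 0.65 and 1. Fisher's exact test called 0% of the 54 to 58 assays tested in each comparison, with between 0 and 2 assays at an unadjusted p under 0.05.

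Where it was measured, Il6 appeared late. Apart from Nissle replicate 7, measured Ct values were between 28.65 and 30.84 cycles. The limit of detection was not measured, and the highest measured Ct of any assay was 36.67. In germ-free samples relative expression had a lowest value of -9.05, a median of -7.18 and a highest of -6.73 log2 units (6 samples). The 3 CEC samples with a Ct were replicates 10, 4 and 9, at -7.37, -6.73 and -6.17. The 4 conventional samples with a Ct were replicates 10, 9, 8 and 1, at -9.17, -8.75, -8.16 and -7.47. The 3 CEC values lay above all 4 conventional values, but they leave out 7 CEC and 6 conventional wells with no Ct.

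The 5 Nissle samples with a Ct were replicates 5, 6, 8, 4 and 7, at -8.50, -8.13, -7.62, -6.78 and -2.26. Replicate 7, with a Ct of 23.83, stood 4.52 log2 units above the next Nissle sample, and above every other sample of the series. The other 4 Nissle samples lay within the range of germ-free samples. Because of that sample the Nissle mean was -6.66 ± 2.54 (SD, n = 5), while the median, -7.62, was below the germ-free median.

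Only Nissle and germ-free samples had the 5 measured values a group that the test asked for. Among measured samples, Il6 differed by 0.89 log2 units with a standard error of 0.851, higher in Nissle (95% interval -0.90 to 2.69; limma, adjusted p = 0.573). With undetermined wells placed 1 cycle above the highest Ct of the table, at 37.67, the sign turned, to -0.33 (limma, adjusted p = 0.945), and in a permutation test of ranks with undetermined wells lowest it was also negative (adjusted p = 0.877). No direction can therefore be given. The other comparisons could be made with undetermined wells lowest in rank, on all 10 samples of each group. The smallest permutation p was 0.156, for conventional against germ-free (lower in conventional, adjusted p = 0.352, with 18.6% of 221 assays called). With undetermined wells at 37.67 cycles, that difference was -2.16 with a standard error of 1.8 (95% interval -5.80 to 1.49; limma, adjusted p = 0.464).

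**Figure D3:**
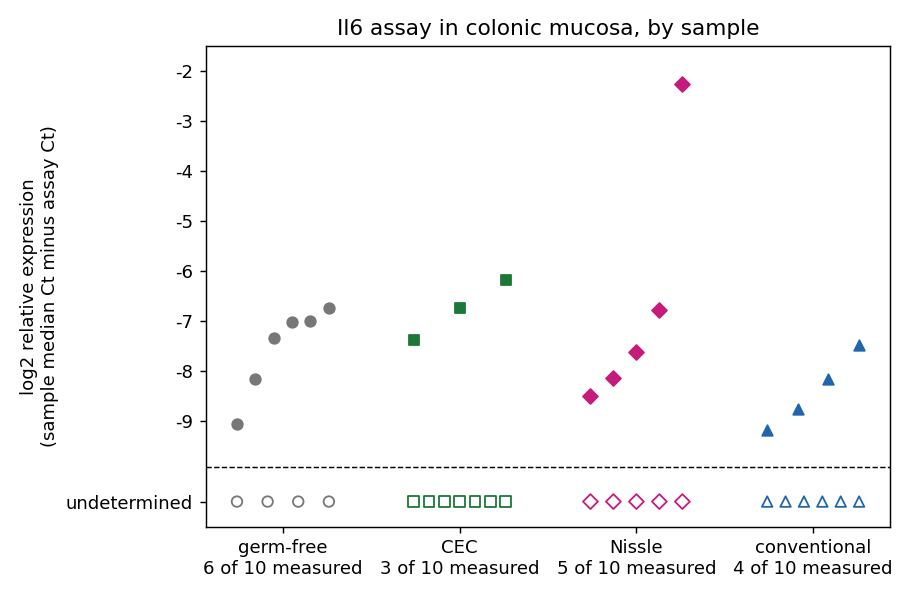
Relative expression of the Il6 assay (log2 units, vertical axis) in the samples of the 4 groups; filled symbols are measured wells and open symbols below the dashed line are undetermined wells, which have no level. Nissle replicate 7, at -2.26, stands apart from all other measured wells, which lie between -9.17 and -6.17.

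Cxcl1 and Il6 were both measured in 5 germ-free, 3 CEC, 5 Nissle and 4 conventional samples. A correlation within a group needs 6 samples and was not computed. Every measured Il6 value but that of Nissle replicate 7 lay between -9.17 and -6.17, whatever the Cxcl1 level of the sample. Of the 4 Nissle samples with the most Cxcl1, replicate 7 had the highest Il6 of the series, replicates 5 and 8 had Il6 at -8.50 and -7.62, and replicate 9, the highest of all in Cxcl1, had no Il6 Ct. Among the other Nissle samples, replicates 4 and 6 had an Il6 Ct and replicates 1, 2, 3 and 10 had none. Among germ-free samples, replicate 33 had the lowest Cxcl1, at -7.51, and the highest Il6, at -6.73, while replicate 31 had the highest Cxcl1, at -4.05, and the lowest Il6, at -9.05. Among CEC samples, replicates 9 and 10, which had the lowest Cxcl1, at -6.83 and -7.77, were 2 of the 3 with an Il6 Ct. Replicate 10 also had the lowest Il6 of these 3, at -7.37. Conventional replicates 1, 9, 10 and 8 had Cxcl1 at -6.10, -5.03, -4.59 and -4.09. Their Il6 lay at -7.47, -8.75, -9.17 and -8.16. These germ-free, CEC and conventional readings of Il6 were late and came from an assay that was often undetermined. A relation between the assays was not tested.

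**Figure D4:**
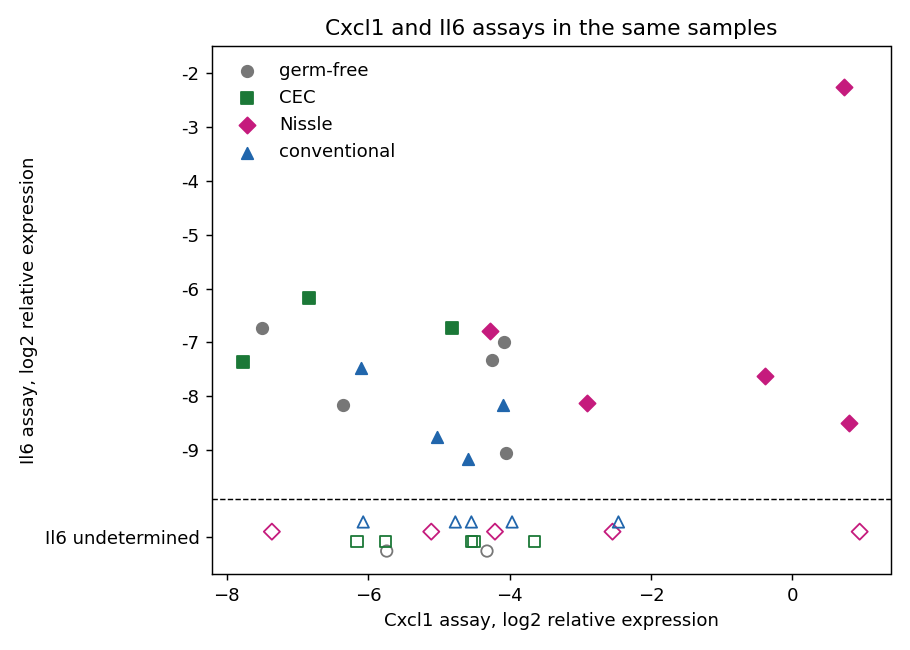
Relative expression of the Cxcl1 assay (horizontal axis, log2 units) against that of the Il6 assay (vertical axis, log2 units) in samples with a measured Cxcl1 well; open symbols below the dashed line are samples with Il6 undetermined, offset by group for legibility. Nissle replicate 7 is the 1 sample at the top right, at 0.74 and -2.26.

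The assays whose pattern was most like that of Cxcl1 were sought by the correlation of deviations from the group means, over samples where both were measured. Among 197 assays with at least 30 such samples, Mm00480752_m1 was closest (Pearson r = 0.405 over 31 samples) and Mm00468869_m1 next (r = 0.385 over 34 samples), against a median r of 0.00691. These are the highest of 197 correlations, and whether they exceed the highest that unrelated assays would give was not tested. All values share the sample median of their library, and the files do not name these genes. For Mm00480752_m1, r was 0.167 within Nissle samples (8 samples) and 0.705 over the other groups (23 samples). For Mm00468869_m1 it was 0.366 within Nissle (10 samples) and 0.427 over the other groups (24 samples). The next assay in the order, Mm00484110_m1 (r = 0.373 over 34 samples), named here after its values were seen, had the opposite split, with 0.590 within Nissle (10 samples) and 0.165 over the other groups (24 samples). The spread of Mm00480752_m1 and Mm00468869_m1 among Nissle samples was small, with an SD of 0.614 and 0.428 log2 units, against 2.87 for Cxcl1. Il6 was measured in too few samples for such a comparison.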

How the data were processed

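RNA of 40 mouse colonic mucosa samples, grouped by their labels, was measured on a customized TaqMan OpenArray, per the labels' protocols. The deposited score is the raw Ct in cycles, per the file headers, which call the table a truncated example. The authors' threshold and quality filters: not given in the sources used here. Of 8960 values, 405 (4.52%, in 21 of 224 assays) were 40 and read as undetermined. Another 156 (1.74%) had been filled in: 153 equalled the mean of the rest of their group within 2e-06 cycles, and 3 that of all but 1. Both kinds were left missing.

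Relative expression, as defined above, takes the panel's typical assay as constant. Every assay with at least 5 measured samples in both groups entered 1 limma fit of the 4 groups (limma 3.58.1, R 4.3.3; two-sided, Benjamini-Hochberg). Fisher's exact test served for detection, and a permutation test (100000 resamples, scipy 1.17.1) for ranks, both two-sided. The former was adjusted over the 54 to 58 assays with a sample not measured in the groups compared. The latter was adjusted over all assays it could test. The steps were tested on simulated data. Members, lists and tests were chosen with earlier results of these data known. The rule named the members and the 2 assays most like each by correlation; Il6 had too few samples for this, and the assay after those 2 was added after its values were seen. Planned gene lists and cell type markers could not be matched, as no source here pairs assay IDs with genes. The number of samples limits the precision.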

Additional observations from a re-analysis of the deposited data

Results flagged for a closer look

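The Il6 value of Nissle replicate 7, at -2.26 log2 units, stood apart from the other 4 measured Nissle samples: its gap to the nearest of them, 4.52, was a share of 0.725 of the group's range. Among the 7 groups of measured values tested for a single distant sample, chance alone would be expected to mark about 1 group in 20. In the same sample Cxcl1 was at 0.74, close to the values of Nissle replicates 5 and 9.

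In the main fit the change of Cxcl1 from germ-free differed between the strains. CEC minus Nissle was -3.07 log2 units (limma, adjusted p = 0.0439), lower in 8 of 8 measured CEC samples than the Nissle mean. That mean, -2.43, also lay above Nissle replicates 1, 6, 10, 4, 2 and 3, and the last 4 of these lay among the CEC samples. Over the alternatives the adjusted p ran from 0.00436 to 0.2, and 35 of 56 did not pass. Neither strain's own change from germ-free passed (limma, adjusted p = 0.836 for CEC and 0.0561 for Nissle).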

How the results depend on the processing

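Values are log2 differences unless stated, and the cause of a change was not tested. Settings with filled-in wells at 37.67 cycles or lowest, and Il6 without Nissle replicate 7, were added after seeing the data. For Cxcl1, the differences of conventional minus germ-free and of CEC minus conventional kept their direction and did not pass in any of their 54 and 56 alternatives. No alternative compared medians, and the difference of medians of conventional minus germ-free had the opposite sign, at -0.27. CEC minus Nissle kept its direction in all 56 and passed in 21. It did not pass with the 10 most stable assays as normaliser (-2.99), in a fit of the 2 groups (-3.07), without Nissle replicates 4 and 5 together (-2.90), or with filled-in and undetermined wells both at 37.67 cycles (-4.70). Nor did it as a difference in mean rank, with undetermined wells lowest (-6.08, in ranks) or filled-in wells too (-7.40). Leaving out 1 sample gave -3.62 to -2.69.

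Nissle minus germ-free passed in 9 of 54 alternatives, among them Ct above 30 as undetermined (3.30), filled-in values as deposited (2.69), sample quality weights (2.19) and filled-in wells at 37.67 cycles (5.71), and ran from 2.37 to 3.30 with 1 sample left out. Nissle minus conventional passed in 16 of 56, among them the normaliser over 153 assays (2.27), Ct above 30 as undetermined (2.74), filled-in values as deposited (2.15), at least 8 measured samples (2.19) and sample quality weights (2.16), and ran from 1.82 to 2.74 with 1 sample left out. CEC minus germ-free turned to 1.02 with filled-in wells at 37.67 cycles, and ran from -0.70 to 0.0091 with 1 sample left out; none passed. Il6 in Nissle minus germ-free turned negative with undetermined wells at 37.67 cycles (-0.33, and -1.29 without Nissle replicate 7) and in mean rank (-0.80, in ranks). Il6 could not be fitted with at least 8 measured samples or Ct above 30 as undetermined. Detection of Il6 in CEC minus conventional turned from -10 to 10 percentage points with Ct above 30 as undetermined. No detection result passed under any rule.

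With the replicate block, fitted without the germ-free samples, Cxcl1 in CEC minus Nissle was -2.82 (limma, adjusted p = 0.134), and 3 assays were called instead of 7. Same-numbered samples did not all correlate above 0.1 (lowest -0.23, -0.095 and -0.38). Of 10, those best with their own were 1 for CEC and Nissle, 4 for CEC and conventional and 1 for Nissle and conventional. In this order, the mean correlation of same-numbered samples was -0.045, 0.186 and -0.050. That of differently numbered samples was 0.010, -0.024 and 0.0047. Whether samples of the same number share handling was not tested. Assays called for CEC against Nissle were 7 (2 higher, 5 lower), 0 in a fit of the 2 groups (23 at an unadjusted p under 0.05), 6 (0 higher, 6 lower) without normalisation (median of all assays -0.38, from 0.03), 3 with the 10 stable assays and 19 with sample quality weights. Weights moved the counts against germ-free from 18 to 79 (CEC), 14 to 38 (Nissle) and 38 to 72 (conventional), and against conventional from 55 to 105 (CEC) and 56 to 88 (Nissle). Without normalisation they were 12, 7, 20, 58 and 21.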
